A study of Fragaria x ananassa with 4 samples.

Results

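Genes of starch synthesis and breakdown were followed in the strawberry receptacle, the fleshy tissue that carries the achenes, between the small green (G1) and the red (R) stage. The genes were chosen by words in the annotation printed with each gene model on the array, among them starch, amylase, glucan phosphorylase, ADP-glucose, isoamylase, branching enzyme, pullulanase, phosphoglucomutase and disproportionating. The words matched 50 genes, and 4 of these were left out because their annotation also named an inhibitor, sucrose or trehalose. This left 46 starch genes of 35116 genes on the array. Their enzyme names come from sequence similarity and are written here as the annotation gives them. For 42 of the 46 the defining word stands in the first name listed for the gene, and for the others it stands in a later one.

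Starch is built inside plastids. Phosphoglucomutase makes glucose 1-phosphate, ADP-glucose pyrophosphorylase turns it into ADP-glucose in the committed step of the pathway, starch synthases add the glucose to growing chains, and branching and debranching enzymes shape the granule. Breakdown starts with dikinases that phosphorylate the granule surface and goes on through amylases, debranching enzymes, phosphorylase and disproportionating enzymes to maltose and glucose. The young strawberry receptacle is known to hold starch that has largely gone by the time the fruit is ripe.

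The 4 samples were receptacles of F. × ananassa without genetic modification or added agent, 2 red and 2 green, and each was labelled with Cy3 and hybridised alone to a custom array of 60-base oligonucleotides. The labels describe plants started in a growth chamber and moved to a greenhouse, while the study's methods describe plants of the field, achenes removed before RNA extraction, and more independent pools of fruits than the 2 samples a stage has here. These accounts differ, and how the 2 samples of a stage relate to the pools is not given. The p-values therefore measure the spread between these samples, which may be technical. The array was designed on gene models of the diploid woodland strawberry, so a probe may read several near-identical copies of the octoploid genome as a single value. Each starch gene had 1 probe, and 34 of them had 2 spots for it. The files used here give neither probe sequences nor positions in the genome, and none are printed.

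Signals are given as multiples of the array's own 75th percentile (control spots left out), which lay at a processed signal of 671, 509, 390 and 347 for red replicates 1 and 2 and green replicates 1 and 2. The number of arrays limits the precision of all values. The 2 red arrays correlated with r = 0.994 across genes and the 2 green arrays with r = 0.995, against 0.818 to 0.820 between stages, and genes are not independent replicates in these values. The ripening genes FaMYB10 (gene31413), FaCAD1 (gene20700), FaQR (gene28407) and FaAAT1 (gene34009), which mark ripe receptacle, were higher in red receptacle by 7.63, 8.40, 6.75 and 6.19 on the log2 scale. Red replicate 1 was read from slide 1, and red replicate 2 shared slide 2 with both green samples.

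Of the 46 starch genes, 40 were bright enough to test, which meant a signal well above background on 2 or more arrays. Of these, 39 reached it on all 4 arrays, and beta-amylase gene15254 reached it on the red arrays alone. In red receptacle 13 of the 40 were higher, 15 were lower and 12 did not pass (limma, adjusted p under 0.05 over all 24975 genes tested). Over all genes tested 72.8% passed, 37.8% higher and 35.1% lower, so that 28 of 40 is close to the share of the whole array. At a change of at least 2-fold, 4 starch genes were higher and 11 were lower, against 17.4% and 21.5% of all genes. The median log2 fold change of red over green was -0.11 for the starch genes and 0.036 for all genes, and the values ran from -2.70 to 3.19. In 37 of the 40 the red arrays did not overlap the green arrays, as in 87% of all genes. In bulk tissue, fewer cells of a type and less RNA per cell cannot be told apart in any of these values.

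The 2 arms of the pathway had different counts. Of 14 tested genes of synthesis, 9 were lower in red receptacle, 4 were higher and 1 did not pass, with a median of -1.36, and 8 of the lower genes changed by at least 2-fold. Of 18 tested genes of breakdown, 6 were higher, 4 were lower and 8 did not pass, with a median of 0.0415. The share that passed was 92.9% for synthesis and 55.6% for breakdown, against 72.8% of all genes tested. Over all genes tested 37.8% were higher and 35.1% lower, and 21.5% were lower by at least 2-fold. The remaining 8 tested genes matched phosphoglucomutase or debranching enzyme and were counted in neither arm, with 3 higher, 2 lower and 3 that did not pass. One of those that did not pass, gene14987, is no starch enzyme by its names. One of the higher genes, gene23284, is classed as a phosphomannomutase. The difference between the arms was not tested.

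**Figure D1:**
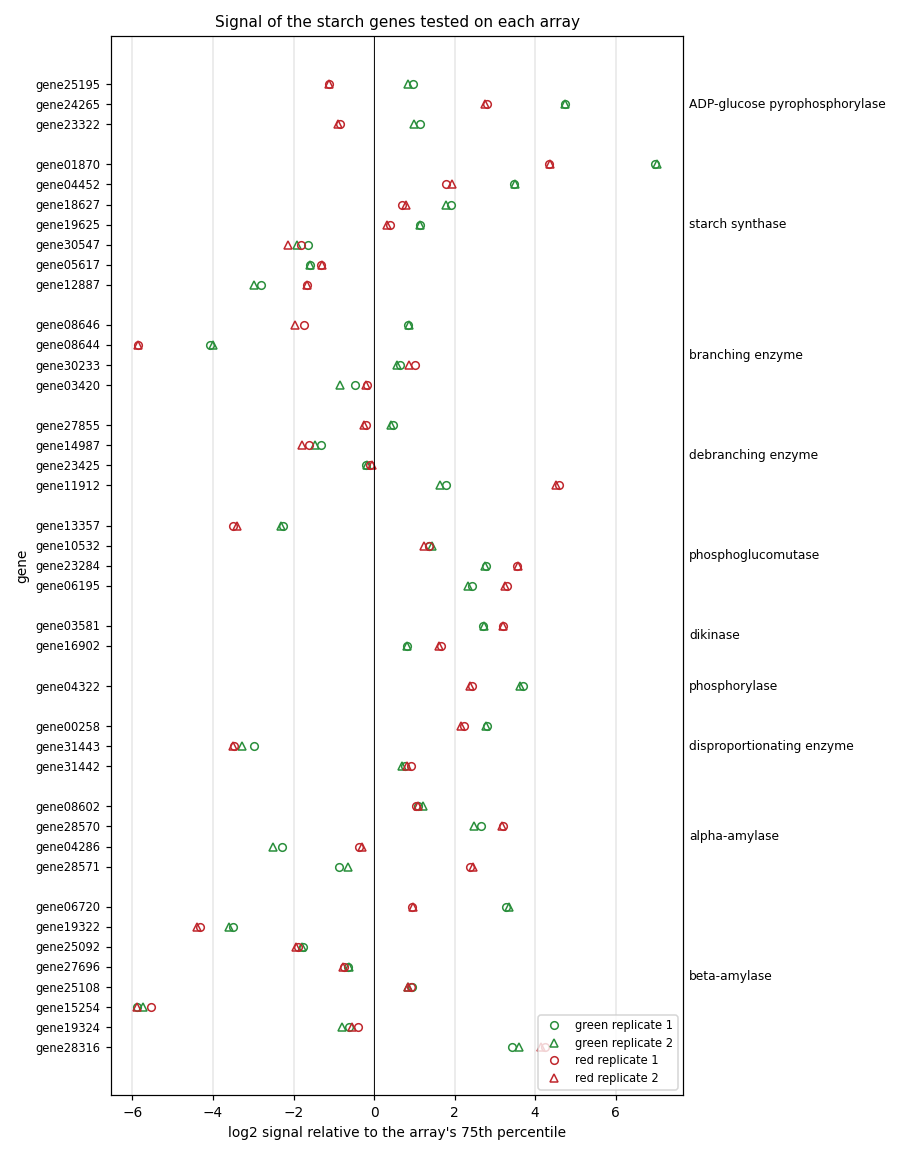
Signal of the 40 starch genes tested, grouped by enzyme, on each array. The x axis is the log2 of the signal over the array's 75th percentile, red symbols are the 2 red samples and green symbols the 2 green samples (circles, replicate 1; triangles, replicate 2). Replicates of a stage lie close together, and the stages stand farthest apart in alpha-amylase gene28571, isoamylase gene11912, branching enzyme gene08646 and granule-bound starch synthase gene01870.

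Genes listed by name as markers of photosynthetic tissue and of achenes moved with the stages as well. For comparison, 37.8% of all genes tested were higher in red receptacle and 35.1% were lower. Of 49 tested genes of the photosynthetic apparatus, 47 were lower in red receptacle (median -3.46), and their summed signal was 310 and 327 in the red samples and 1661 and 1603 in the green samples. A list of seed storage, oil body and late embryogenesis abundant proteins was chosen by name as markers of achenes and embryos. Of its 34 tested genes, 28 were higher in red receptacle and 4 were lower (median 1.40). Their summed signal was 182 and 189 in the red samples and 68.6 and 73.9 in the green samples, and 30 of the 37 genes of this list were well above background on both green arrays and 34 on both red arrays. Whether the genes of this list stand for achenes or embryos in these samples was not tested. Nor was the part of photosynthetic tissue or achenes, or of their loss, in the values of the starch genes.

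All 3 tested genes for ADP-glucose pyrophosphorylase (glucose-1-phosphate adenylyltransferase in the annotation) fell, each to about the same extent. gene24265 gave 7.04 and 6.78 in red receptacle and 26.6 and 26.7 in green. Every green value was above every red value, and the log2 fold change was -1.95 (SE 0.06, adjusted p = 1.14e-04). gene25195 gave 0.463 and 0.458 in red and 1.96 and 1.79 in green, and gene23322 gave 0.556 and 0.539 in red and 2.22 and 1.97 in green. Both were again lower on each red array, by -2.02 (SE 0.08, adjusted p = 1.60e-04) and -1.93 (SE 0.09, adjusted p = 2.39e-04). Under every scaling tried, the 3 genes stayed lower and passed the test.

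Starch synthases went both ways. Granule-bound starch synthase makes amylose within the granule, and the 3 genes with it as their first name fell in red receptacle. gene01870, granule-bound starch synthase Ia, gave 20.1 and 20.5 in red against 127 and 131 in green. Its change was -2.66 (SE 0.06, adjusted p = 6.27e-05), so that the green samples held 6.34 times the red signal. gene04452, granule-bound starch synthase 1, gave 3.47 and 3.82 in red against 11.1 and 11.3 in green, a change of -1.62 (SE 0.08, adjusted p = 2.84e-04). The third, gene18627 (granule-bound starch synthase Ib), was named after its values were seen and changed by -1.10 (SE 0.09, adjusted p = 8.94e-04), with 1.63 and 1.72 in red and 3.77 and 3.42 in green.

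The other starch synthases, which include the soluble enzymes that extend amylopectin chains, were lower, higher or did not pass. gene12887, a glycosyltransferase of family 5 with starch synthase among its names, was higher, with 0.315 and 0.317 in red and 0.142 and 0.126 in green (1.24, SE 0.09, adjusted p = 7.39e-04). With the normexp background correction its change was 0.61. Its enzyme classes include that of granule-bound starch synthase, 2.4.1.242, which gene04452 also carries. 3 genes were named after their values were seen. gene19625, a soluble starch synthase III, was lower by -0.79 (SE 0.07, adjusted p = 0.00115), but missed the threshold in the study's own RMA matrix (adjusted p = 0.0509). gene30547, which carries the same name, overlapped between the stages at 0.283 and 0.227 in red and 0.323 and 0.266 in green, with an interval for the change of -0.67 to 0.26. gene05617, a starch synthase V, was higher by 0.28 (SE 0.06, adjusted p = 0.0182), a call that was lost when any single array was left out (adjusted p from 0.0590 to 0.103).

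Branching enzymes set the branch points of amylopectin, and the 4 genes went both ways. gene08646, named starch branching enzyme I, had the lowest change of all starch genes. It gave 0.299 and 0.258 in red against 1.80 and 1.82 in green, a change of -2.70 (SE 0.10, adjusted p = 1.41e-04). gene08644 has the same name and was dim, with 0.0171 and 0.0173 in red and 0.0594 and 0.0623 in green. Its change was -1.82 (SE 0.07, adjusted p = 1.44e-04), and with the normexp background correction it was -0.77. The other 2 were slightly higher in red. gene03420, also starch branching enzyme I, changed by 0.47 (SE 0.15, adjusted p = 0.0478), with 0.882 and 0.878 in red and 0.720 and 0.557 in green. gene30233, starch branching enzyme II-1, was named after its values were seen and changed by 0.33 (SE 0.09, adjusted p = 0.0307). Both calls were lost in 3 of the 4 fits that left out an array, with adjusted p up to 0.123 and 0.132.

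**Figure D2:**
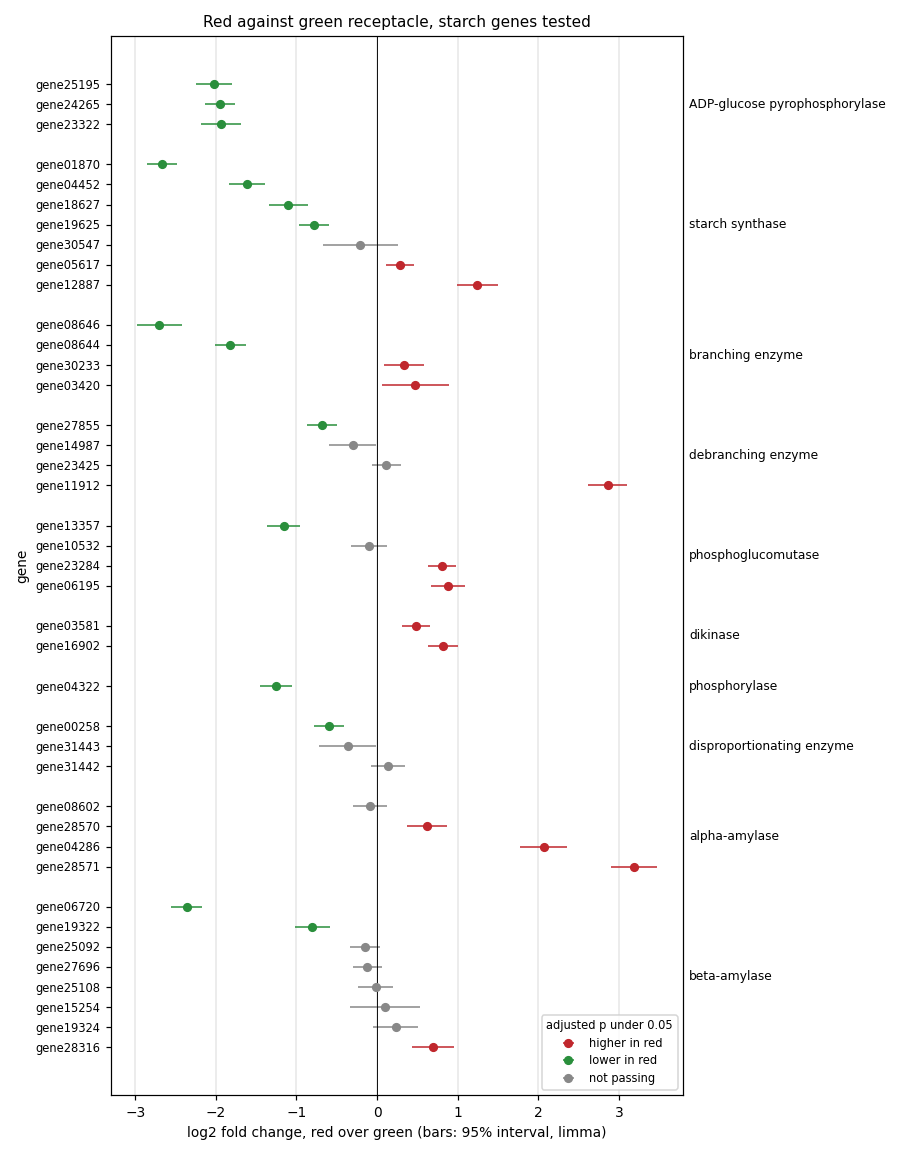
Log2 fold change of red over green receptacle for the 40 starch genes tested, with 95% intervals from limma. Red points are genes higher in red receptacle at an adjusted p under 0.05, green points are lower genes and grey points did not pass. The 3 genes for ADP-glucose pyrophosphorylase lie between -2.02 and -1.93, while starch synthases, branching enzymes and beta-amylases spread to both sides of 0. The interval of gene15254 is against a green signal that was not well above background.

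Debranching enzymes cut the branch points, in synthesis to trim amylopectin and in breakdown to free linear chains. gene11912, a putative isoamylase, was 24.2 and 23.1 in red receptacle and 3.44 and 3.09 in green. Each red array was far above each green array, a rise of 2.86 (SE 0.09, adjusted p = 9.35e-05) or 7.25-fold, which placed it at rank 953 of 24975 from the top. It is the 1 starch gene on the study's lists of ripening genes that respond to silencing of the regulator FaPRE1. Those lists were drawn partly from these arrays, so its place on them is not independent evidence. gene27855, isoamylase isoform 2, was lower at 0.869 and 0.836 in red against 1.39 and 1.34 in green (-0.68, SE 0.07, adjusted p = 0.00175), and did not pass in the RMA matrix (-0.22, adjusted p = 0.124). gene23425, a starch debranching enzyme of the pullulanase type, was named after its values were seen and had a change of 0.11 with an interval of -0.07 to 0.29. It passed as higher in the RMA matrix (0.58, adjusted p = 0.0111). The words also caught gene14987, whose first name is peroxidase and whose later name is lariat debranching enzyme, an RNA processing enzyme with no part in starch (-0.31, adjusted p = 0.0584).

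Phosphoglucomutase interconverts glucose 6-phosphate and glucose 1-phosphate in both the cytosol and the plastid. gene06195, named as the cytoplasmic form, gave 9.79 and 9.52 in red and 5.43 and 5.04 in green, higher by 0.88 (SE 0.07, adjusted p = 0.00114). gene23284 is named for the phosphoglucomutase and phosphomannomutase family but carries only the phosphomannomutase class, 5.4.2.8. It was higher by 0.81 (SE 0.06, adjusted p = 9.12e-04), with 11.8 and 11.9 in red and 6.84 and 6.69 in green. gene13357, a glucose phosphomutase with a chloroplastic form among its names, moved the other way, with 0.0882 and 0.0946 in red and 0.207 and 0.201 in green. It was lower by -1.16 (SE 0.07, adjusted p = 5.30e-04). gene10532, a putative beta-phosphoglucomutase, was named after its values were seen and had an interval of -0.33 to 0.12 around -0.11.

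Both dikinases, which phosphorylate glucan chains and so open the granule to amylases, were higher in red receptacle by less than 2-fold. gene03581, an alpha-glucan water dikinase, gave 9.12 and 9.27 in red and 6.55 and 6.64 in green (0.48, SE 0.06, adjusted p = 0.00391). gene16902, named as a chloroplast form of the same enzyme and classed as phosphoglucan water dikinase, gave 3.17 and 3.04 in red and 1.77 and 1.75 in green (0.82, SE 0.07, adjusted p = 9.94e-04). The plastid phosphorylase and a disproportionating enzyme were lower instead. gene04322, the L isozyme of alpha-1,4 glucan phosphorylase, which frees glucose 1-phosphate from chain ends, gave 5.40 and 5.20 in red and 13.0 and 12.3 in green (-1.26, SE 0.07, adjusted p = 3.89e-04). gene00258, a 4-alpha-glucanotransferase, which moves glucan segments between chains, gave 4.69 and 4.49 in red and 6.99 and 6.89 in green. Its change of -0.60 (SE 0.07, adjusted p = 0.00242) was -0.13 in the RMA matrix, where it did not pass (adjusted p = 0.270). The other 2 disproportionating enzymes did not pass, gene31442 with 0.14 (interval -0.08 to 0.35) and gene31443 with -0.36 (interval -0.72 to -0.01, adjusted p = 0.0617). gene31442 passed as higher in the RMA matrix (0.60, adjusted p = 0.0168), and gene31443 passed as lower with normexp (-0.43, adjusted p = 0.00446). Without green replicate 2, gene31443 passed with a change of -0.51 (adjusted p = 0.0180).

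Alpha-amylases, which cut within glucan chains, included the gene with the highest change of the set. gene28571 gave 5.25 and 5.51 in red receptacle and 0.549 and 0.634 in green. The stages were wide apart, and the rise was 3.19 (SE 0.10, adjusted p = 1.03e-04) or 9.12-fold, at rank 789 of 24975 from the top. gene04286, a putative alpha-amylase, rose as well, from 0.205 and 0.176 in green to 0.773 and 0.819 in red (2.07, SE 0.10, adjusted p = 2.97e-04), a change of 1.43 with normexp. gene28570 was higher by 0.62 (SE 0.09, adjusted p = 0.00486), with 9.23 and 9.03 in red and 6.29 and 5.59 in green. Only gene08602, annotated as the cytosolic alpha-amylase and named after its values were seen, did not pass among the 4 tested. Its values were 2.06 and 2.13 in red and 2.14 and 2.31 in green, with an interval of -0.30 to 0.13.

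Beta-amylases, which release maltose from chain ends and are the main amylases of starch breakdown in leaves, mostly did not pass. Of 8 tested, 1 was higher, 2 were lower and 5 did not pass. gene06720 gave 1.92 and 1.94 in red receptacle and 9.65 and 10.2 in green. It fell by 2.36 on the log2 scale (SE 0.07, adjusted p = 8.34e-05), the lowest change among the breakdown genes. gene28316 moved the other way and was higher by 0.69 (SE 0.09, adjusted p = 0.00418), with 18.9 and 17.8 in red and 10.8 and 12.1 in green. The second lower gene, gene19322, was dim, with 0.0498 and 0.0474 in red and 0.0880 and 0.0818 in green. Its change of -0.80 (SE 0.08, adjusted p = 0.00160) did not pass in the RMA matrix (-0.38, adjusted p = 0.0644). The 5 that did not pass were named after their values were seen. gene19324 had an interval of -0.05 to 0.51, gene25092 of -0.33 to 0.04, gene25108 of -0.23 to 0.20 and gene27696 of -0.30 to 0.06. These intervals leave room for changes of less than 2-fold. gene15254 gave 0.0216 and 0.0168 in red and 0.0170 and 0.0186 in green, where it was not well above background, and no fold is given here. Its log2 changes under other processing, listed at the end, are against that same dim green signal.

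The 6 starch genes that were not tested were dim in both stages. 4 of them were not well above background on any array: alpha-amylase gene04016, phosphoglucomutase gene04101, starch synthase gene11366 and the lariat debranching enzyme gene15727. By its enzyme class, gene04101 is a phosphomannomutase. ADP-glucose pyrophosphorylase gene05910 was above background on 1 green array, with 0.00878 and 0.00817 in red and 0.0120 and 0.0172 in green. Beta-amylase gene23897 was above background on 1 green array as well, with 0.00332 and 0.00364 in red and 0.0340 and 0.0157 in green. No fold is given for them.

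Genes of neighbouring steps and of transport across the plastid envelope were sought by a second list of words. Of 34 such genes 31 were tested, and 14 were higher in red receptacle, 13 were lower and 4 did not pass, with a median of -0.0405. Thus 87.1% passed, against 72.8% of all genes tested (37.8% higher and 35.1% lower). By their first name 6 were triose phosphate translocators, which exchange triose phosphates for phosphate across the plastid envelope. Of these, 5 were lower and 1 did not pass, with a median of -3.47. The lowest was gene11649, named as a form of the non-green plastid, at 0.0511 and 0.0611 in red and 0.985 and 0.967 in green (-4.13, SE 0.11, adjusted p = 7.63e-05). gene29759 gave 0.257 and 0.263 in red and 4.02 and 3.43 in green (-3.84, SE 0.11, adjusted p = 7.66e-05). The others were named after their values were seen. gene04620 (-3.48, above background on 1 of the 2 red arrays), gene32332 (-3.46) and gene07453 (-2.12) were lower, and gene32199 did not pass (-0.32, interval -0.72 to 0.09).

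Isomerases and hexokinases of the hexose phosphate pool were mostly higher, and the genes named in this paragraph were chosen after their values were seen. Both glucose-6-phosphate isomerases were higher, led by gene15133, which is named as cytosolic. It gave 26.4 and 26.7 in red and 6.74 and 7.02 in green (1.95, SE 0.07, adjusted p = 1.17e-04). Of 4 hexokinases, which phosphorylate glucose, 3 were higher and 1 did not pass, and gene25718 had the highest change (1.66, SE 0.07, adjusted p = 1.85e-04). The ATP/ADP transporter gene06024, whose first name gives no place in the cell, was higher by 0.77 (SE 0.07, adjusted p = 0.00166). Of 4 inorganic pyrophosphatases, 3 were higher and 1 was lower. One of the higher genes, gene30771, is named as the proton pump of the vacuole, and another, gene18598 (0.56, adjusted p = 0.0145), was at -0.045 with normexp and did not pass without red replicate 1 (adjusted p = 0.0579). The word fructokinase also caught phosphofructokinases of glycolysis. By their first name, all 4 tested fructokinases were lower (median -0.83), and of 6 phosphofructokinases 3 were higher and 2 were lower. In the RMA matrix 3 of the 4 fructokinases did not pass, gene07640 at -0.12 (adjusted p = 0.293), gene21131 at -0.19 (adjusted p = 0.294) and gene18777 at -0.56 (adjusted p = 0.0813).

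Glucose-6-phosphate translocators import glucose 6-phosphate into plastids without photosynthesis. By their first name 3 were tested, of which 2 were higher and 1 did not pass, and gene18781, named after its values were seen, changed most (1.55, SE 0.08, adjusted p = 3.03e-04). The word also caught the triose phosphate translocators gene07453 and gene32199 and, with beta-glucosidase as its first name, gene19575. Neither red array held gene19575 well above background, with 0.00857 and 0.00646 there and 1.05 and 1.06 in green, so it entered the test through the green arrays alone. Its green mean was set against the lowest signal accepted as above background on each red array, or its own red signal if higher. With the background subtraction used this gave 129-fold, while normexp gave a log2 change of -3.33. Brighter signals can also miss acceptance, as gene04620 did on red replicate 2 at 0.0170, so 129-fold is no strict lower limit.

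**Figure D3:**
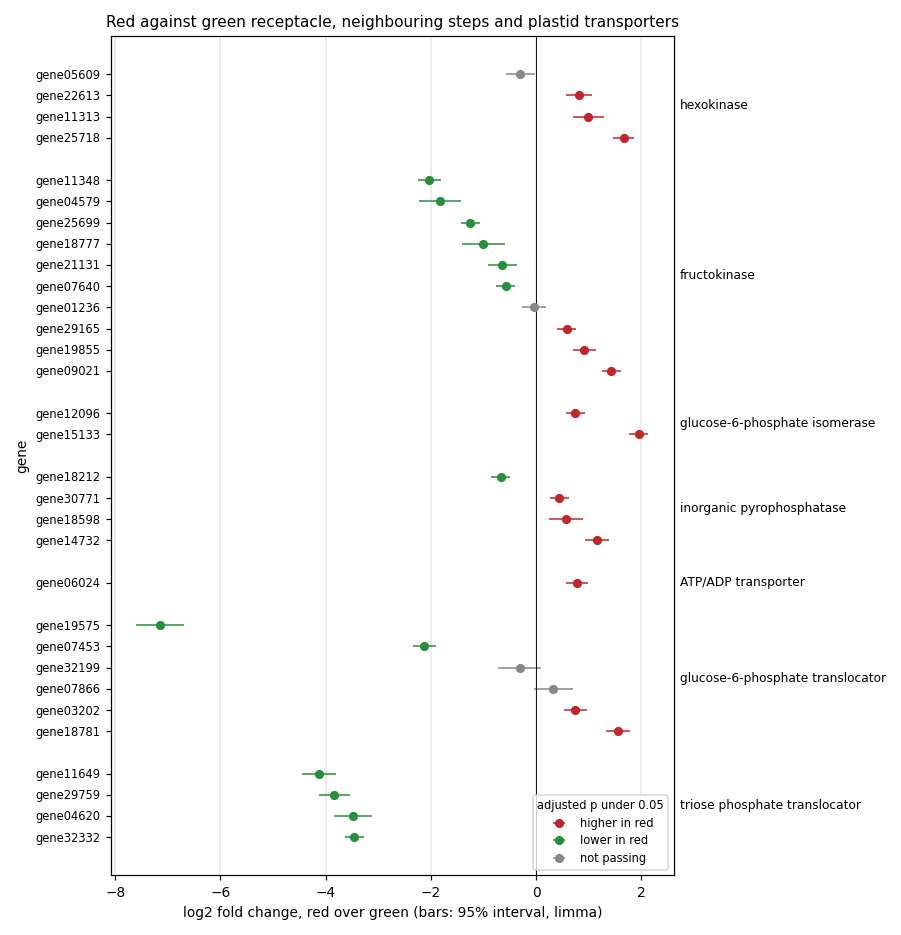
Log2 fold change of red over green receptacle for the 31 tested genes found by the second list of words, with 95% intervals from limma, grouped by kind. The 4 genes grouped as triose phosphate translocators lie between -4.13 and -3.46, and both glucose-6-phosphate isomerases lie above 0. gene07453 and gene32199, triose phosphate translocators by first name, are drawn in the glucose-6-phosphate translocator group. The fructokinase group includes phosphofructokinases, and the value of gene19575 is the fitted one, against a red signal that was not well above background.

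The processing of the arrays moved the median of all genes. The median of all genes was 0.036 with the 75th percentile, 0.35 in the RMA matrix, 0.19 with quantile normalization and -0.21 with the normexp correction. The share of called genes that were higher went from 51.9% to 68.6% in the RMA matrix, 57.7% with quantile normalization and 40% with normexp. All 28 called starch genes nevertheless kept their direction under every alternative tried. Of these, 21 also kept their call under every alternative other than the higher fold thresholds, and the exceptions were gene00258, gene03420, gene05617, gene19322, gene19625, gene27855 and gene30233. Of the 27 called genes of the second list 21 kept their call in the same way, and the exceptions were gene07640, gene18212, gene18598, gene18777, gene21131 and gene30771.

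**Figure D4:**
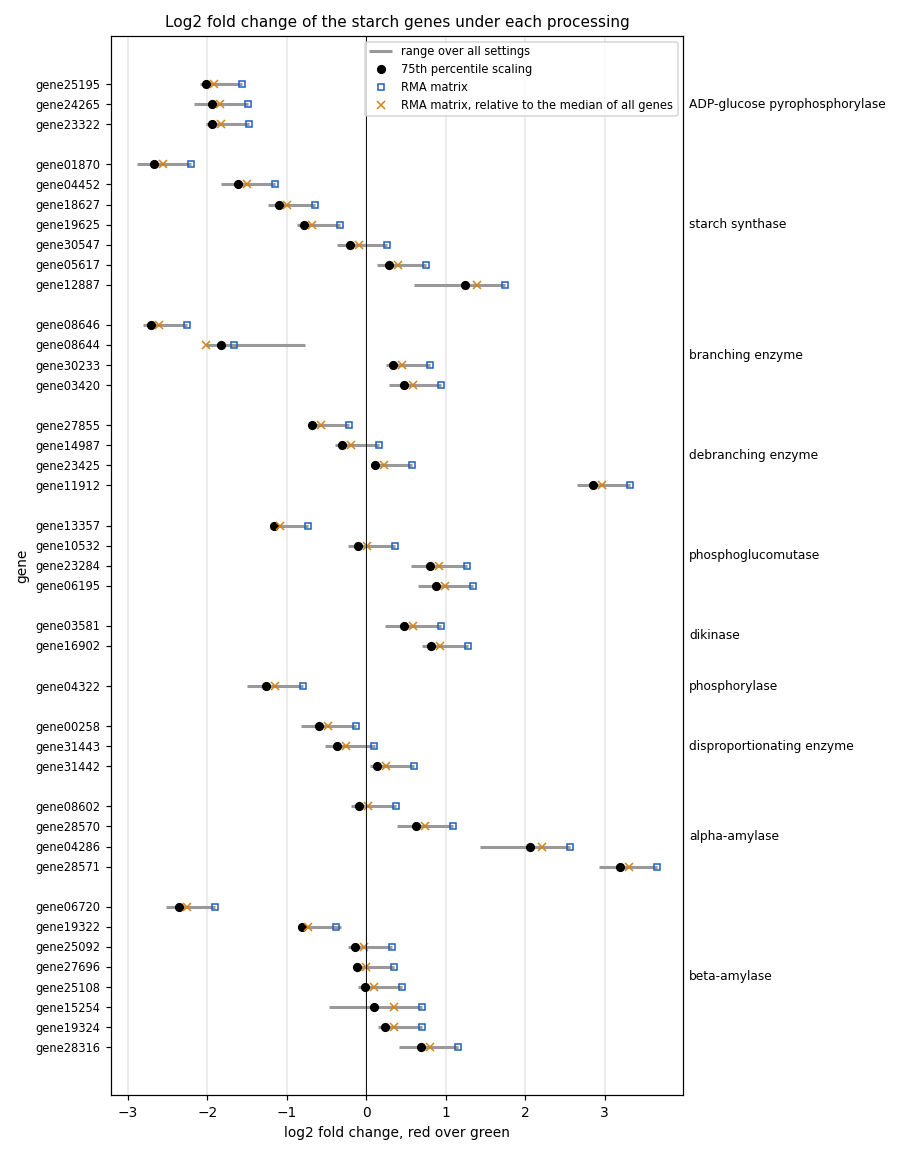
Log2 fold change of red over green for the 40 starch genes under each processing. Black points are the values with 75th percentile scaling, blue squares those of the RMA matrix, orange crosses the RMA values after the median of all genes was subtracted, and grey bars run from the lowest to the highest value over all settings. RMA values lie to the right of most black points, and the crosses lie close to the black points in most genes.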

How the data were processed

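The deposited files hold, per the file headers, the processed intensity of each spot from Agilent Feature Extraction 10.7.3.1, background-subtracted and on a linear scale. The authors also deposited a matrix of RMA intensities of the same arrays, with the annotation used to find genes. The tool and settings of the RMA step are not given in the sources used here. The RNAi-FaPRE1 arrays were not analysed here.

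From each log2 processed signal the 75th percentile of its array, taken over all spots but the control spots, was subtracted. Uneven or outlier spots were left out after that. Spots of a probe were averaged. A probe entered when 2 or more of the 4 arrays held it well above background, and a gene was the mean of its probes. 40 genes with a missing value were left out. The 24975 genes were fitted in limma (version 3.58.1, R version 4.3.3, functions lmFit and eBayes), with 2 residual and 1.81 prior degrees of freedom. Two-sided p-values were adjusted with Benjamini-Hochberg over all genes, and the threshold was 0.05. Intervals cover 95%. An exact permutation test of 2 against 2 samples cannot go below p = 0.333. The script was tested on simulated data.

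The members and lists were chosen with earlier results of these data known. Named are the 3 members of largest change in each enzyme group, all members of groups of 3 or fewer, members bright in only 1 stage that passed, members on the study's lists, and the 3 other pathway genes of largest change. The annotation matrix pairs genes with names, and symbols of the ripening genes follow the study.

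Alternatives were the RMA matrix, also relative to its median, quantile normalization, normexp on the median spot signal (offset 50), other filters and probe summaries, limma with a trend, the methods' t-test, the study's own threshold (a log2 change beyond 2 at p up to 0.05), a 2-fold threshold, replicate and slide as blocks, and leaving out each array.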

Additional observations from a re-analysis of the deposited data

How the results depend on the processing

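With 2 arrays a stage, dim probes and changes well under 2-fold are the least certain values. In the RMA matrix 11 breakdown genes were higher and the median of the starch genes was 0.27, against 0.029 with quantile normalization and -0.26 without a filter on dim probes. With normexp 7 breakdown genes were lower. Of the 4 synthesis genes higher in red, 2 passed relative to the RMA median, 2 without a filter, 2 by the methods' t-test after Benjamini-Hochberg, 1 with the slide as a block, and 1 to 2 when an array was left out (1 without red replicate 1 or without green replicate 2, 2 without either other array). At the study's threshold 3 starch genes were higher and 4 lower (synthesis 0 and 3, breakdown 2 and 1, other pathway genes 0 and 7). At 2-fold 4 starch genes were higher (synthesis 1, breakdown 2 higher and 2 lower, other pathway genes 5 higher).

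The replicate numbers come from the labels alone and same-numbered samples did not deviate together (r = 0.0782 across genes). With the replicate number as a block, 12 starch genes were higher and 16 lower (synthesis 3 and 9, breakdown 6 and 4, other pathway genes 14 and 13). gene03420 missed the threshold there (adjusted p = 0.0540) and gene14987 passed (adjusted p = 0.0299).

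Genes that changed sign had not passed the test with 75th percentile scaling, except gene18598, a pyrophosphatase at -0.045 with normexp. After the change of sign, gene08602 (adjusted p = 0.0382), gene25108 (0.0353) and gene27696 (0.0367) passed as higher in the RMA matrix, and gene15254, which was not well above background in green, passed as lower with normexp (0.0109). In the RMA matrix the log2 fold change became 0.38 for gene08602, 0.36 for gene10532, 0.16 for gene14987, 0.32 for gene25092, 0.45 for gene25108, 0.34 for gene27696, 0.26 for gene30547, 0.10 for gene31443, 0.18 for gene01236, 0.17 for gene05609 and 0.15 for gene32199. Relative to the RMA median it was 0.023 for gene08602, 0.0065 for gene10532 and 0.10 for gene25108. With quantile normalization it was 0.16 for gene25092, 0.0055 for gene27696, 0.10 for gene30547, 0.11 for gene31443 and 0.094 for gene05609. With normexp it was -0.46 for gene15254 and -0.12 for gene07866. gene15254 was at -0.084 with the slide as a block. Leaving out an array gave -0.084 (without red replicate 1) to 0.28 for gene15254, -0.0695 to 0.0407 for gene25108 and -0.0981 to 0.0172 for gene01236. The cause was not tested. Some genes that had not passed with 75th percentile scaling passed elsewhere with the same sign. In the RMA matrix these were gene07866, gene19324, gene23425 and gene31442, all higher. With quantile normalization gene07866, gene15254 and gene19324 passed as higher and gene32199 as lower. With normexp gene05609, gene14987, gene25092, gene30547 and gene31443 passed as lower.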
